A study of Homo sapiens with 3 samples.

Results

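The Frizzled genes FZD1 to FZD10, which encode the receptors of WNT proteins, were examined in RNA-seq data of H9 cells. H9 is an established line of human embryonic stem cells. The members were found by matching the Ensembl identifiers of the deposited counts to GENCODE symbols, which gave all 10 genes among 58051 genes counted. They are 10 of 19629 protein-coding genes with a match. The study has 1 group of 3 replicates, named replicates 1 to 3 by the labels, of wild-type cells that received no treatment. The cells were grown without feeder cells in Essential 8 Flex medium on vitronectin, and libraries were made from total RNA freed of ribosomal RNA. Nothing in the labels says whether the replicates are separate cultures, so the spread between them may be technical. With 1 condition there is no contrast to test, and levels are given with their SD over the replicates.

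Gene counts summed to 10390984 reads in replicate 1, 12024802 in replicate 2 and 8655155 in replicate 3, of which 6043, 7184 and 5610 were on Frizzled genes. The label of the cells was checked on genes that mark pluripotent cells. POU5F1, NANOG, SOX2, LIN28A, DPPA4 and TDGF1 had means from 275 to 2576 TPM, a level per exon length that is defined with the first values below. Summed levels of 4 markers each were 24.2 to 39.4 TPM for mesoderm and primitive streak, 9.66 to 14.2 TPM for endoderm, 3.84 to 5.88 TPM for neural ectoderm and 6.68 to 8.44 TPM for trophoblast over the 3 replicates. For stroma the sum was 38.2 to 43.8 TPM, from COL1A1 and COL1A2, with DCN at 0.0985 TPM and LUM at 0.178 TPM. For blood it was 0.469 to 0.642 TPM, and HBG1 had no read. The part of such cells in the Frizzled levels was not tested.

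Frizzled proteins are receptors of the cell surface, related to Smoothened, that span the membrane several times. An extracellular cysteine-rich domain binds WNT ligands, and the coreceptors LRP5 and LRP6 join the complex. Inside the cell, Dishevelled proteins bind the receptor and the destruction complex is inhibited, so that beta-catenin accumulates and acts with TCF/LEF factors in the nucleus. Other Frizzled signals do not need beta-catenin and act on cell polarity and movement. In human embryonic stem cells WNT signals can drive differentiation into mesoderm and endoderm.

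The highest level was that of FZD5, a receptor of the beta-catenin branch (ENSG00000163251, chromosome 2, 207762598 to 207769906, minus strand, GRCh38). It had 2079, 2478 and 2074 reads in replicates 1, 2 and 3. This gave 113, 116 and 133 TPM, with a mean of 121 ± 10.4 TPM (SD, n = 3), where TPM is the count divided by the summed length of a gene's exons and scaled to the same total in each replicate. Replicate 3 was the highest. FZD5 ranked 1291 among the protein-coding genes.

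FZD7 (ENSG00000155760, chromosome 2, 202033855 to 202038441, plus strand), a receptor often studied in human embryonic stem cells, followed with 976, 1193 and 950 reads. Its levels were 81.7, 85.9 and 93.3 TPM, with a mean of 87.0 ± 5.86 TPM (SD, n = 3) and rank 1900. All of its replicates were below all of those of FZD5, which was 1.39, 1.35 and 1.42 times higher in the 3 libraries. The third level was that of FZD3 (ENSG00000104290, chromosome 8, 28494205 to 28574267, plus strand), known for its part in planar cell polarity and in axon guidance. It had 2037, 2343 and 1569 reads, fewer than FZD5 in each replicate and by the most in replicate 3. These are 56.8, 56.2 and 51.3 TPM, with a mean of 54.7 ± 3.01 TPM (SD, n = 3). It was lowest in replicate 3, where FZD5 and FZD7 were highest. FZD5, FZD7 and FZD3 together held 75.0 ± 1.32% (SD, n = 3) of the summed Frizzled TPM, of which FZD5 had 34.5 ± 0.633%, FZD7 24.8 ± 0.246% and FZD3 15.7 ± 1.87%.

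The next 4 members had means between 13.9 and 24.2 TPM. FZD2 (ENSG00000180340, chromosome 17, 44557484 to 44561262, plus strand), a relative of FZD7, had 221, 249 and 237 reads. Its levels were 22.5, 21.8 and 28.3 TPM, with a mean of 24.2 ± 3.56 TPM (SD, n = 3). FZD8 (ENSG00000177283, chromosome 10, 35638247 to 35642296, minus strand), the closest relative of FZD5, had 193, 225 and 244 reads, which are 18.3, 18.4 and 27.1 TPM, and a mean of 21.3 ± 5.09 TPM (SD, n = 3). Both were highest in replicate 3, and their ranges overlapped, although FZD2 was above FZD8 within each library, by 1.23, 1.19 and 1.04 times. Without replicate 3 the mean of FZD8 was 18.3 TPM. Of its exon length 9.85% is shared with MIR4683 and with a long RNA gene, ENSG00000287528. Neither had an entry among the matched genes of the counts, so no reads of theirs could be compared with those of FZD8.

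FZD4, the receptor of Norrin as well as of WNT proteins (ENSG00000174804, chromosome 11, 86945679 to 86955395, minus strand), had 248, 328 and 265 reads. Its levels were 12.9, 14.7 and 16.2 TPM, with a mean of 14.6 ± 1.64 TPM (SD, n = 3). FZD6 (ENSG00000164930, chromosome 8, 103298433 to 103332866, plus strand), which like FZD3 is known for planar cell polarity, had 142, 175 and 126 reads. These are 13.4, 14.2 and 14.0 TPM, with a mean of 13.9 ± 0.412 TPM (SD, n = 3). FZD4 and FZD6 overlapped and changed order between libraries, with FZD6 the higher in replicate 1. Of the exon length of FZD4, 1399 bp (18.9%) lie over exons of PRSS23 on the opposite strand. PRSS23 had 161, 205 and 162 reads, and no source used here gives the strand setting of the counting, so that reads in this stretch cannot be assigned to either gene with certainty. For FZD6 the stretch shared with BAALC-AS1 is 138 bp, and BAALC-AS1 had 14, 26 and 9 reads.

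The lowest levels were those of FZD10, FZD1 and FZD9. FZD10 (ENSG00000111432, chromosome 12, 130162459 to 130165740, plus strand) had 60, 98 and 64 reads. These are 7.02, 9.87 and 8.79 TPM, with a mean of 8.56 ± 1.44 TPM (SD, n = 3). FZD1 (ENSG00000157240, chromosome 7, 91264433 to 91271326, plus strand), of the same subfamily as FZD2 and FZD7, had 81, 91 and 78 reads on a transcript of 6894 bases. Its levels were 4.51, 4.36 and 5.10 TPM, with a mean of 4.66 ± 0.388 TPM (SD, n = 3). More reads were thus counted on FZD1 than on FZD10 in all, 250 against 222, but the level per exon length was lower in each replicate. FZD9 (ENSG00000188763, chromosome 7, 73433778 to 73436120, plus strand), whose gene lies in the Williams syndrome region, had 6, 4 and 3 reads. Its levels were 0.984, 0.564 and 0.577 TPM, with a mean of 0.708 ± 0.239 TPM (SD, n = 3). On the CPM scale, where counts are scaled to the library total but not divided by length, the 95% Wilson intervals of FZD9 were 0.265 to 1.26, 0.129 to 0.855 and 0.118 to 1.02, so that its replicates were not distinguishable at this depth. These intervals cover counting error only. Transcripts of all cells were sequenced together, and fewer cells with a gene and less RNA of it per cell cannot be told apart.

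**Figure D1:**
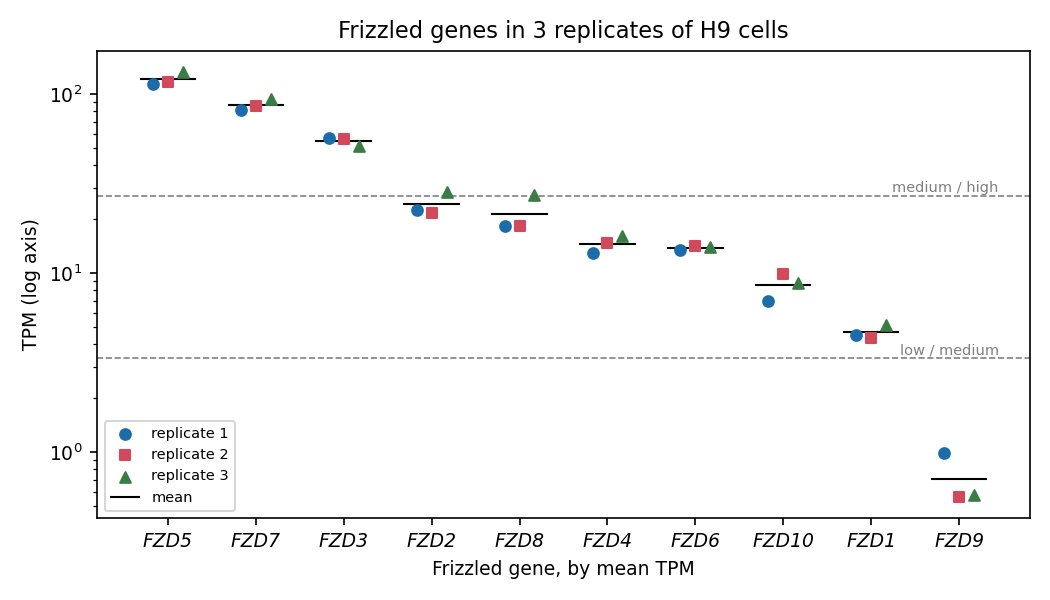
TPM of each Frizzled gene on a log axis, with a point for each replicate, a bar at the mean of the 3 replicates and dashed lines at the boundaries between expression classes (3.35 and 27.0 TPM). FZD5, FZD7 and FZD3 are above the upper line in every replicate, and FZD9, at a mean of 0.708 TPM, is the only member below the lower line.

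The study sorted genes into nonexpressed genes, below 0.01 TPM, and 3 quantiles of the others, and the same scheme was applied to the mean TPM of protein-coding genes. All 10 members had at least 0.01 TPM, as had 86.4% of protein-coding genes. A mean of 1 TPM was reached by 9 members and by 67.4% of protein-coding genes. In the high class were 3 members, FZD5, FZD7 and FZD3, which is near the 28.8% of protein-coding genes that this class holds. With classes set over all matched genes, the boundary was 8.57 TPM and the high class held 7 members, 47.6% of protein-coding genes and 19.7% of all matched genes, with FZD10, at 8.56 TPM, just outside it. With classes set over protein-coding genes, 6 members were in the medium class, and FZD9 was in the low class. Each member had the same class in all 3 replicates taken alone. FZD2 came closest to the boundary of 27.0 TPM, and in replicate 3 it and FZD8 were above that value but below the boundary set within that replicate. The highest mean was 171 times the lowest. Of the 45 pairs of members, 43 had ranges that did not overlap between replicates, and 44 had the same order in every library. Among the 9 pairs of neighbors in the order of the means, FZD2 with FZD8 and FZD4 with FZD6 were those whose ranges overlapped. No test of this order was made.

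Frizzled genes fall into 4 subfamilies of related proteins, and each was represented by members of unequal level. FZD5 and FZD8 together had 132, 135 and 160 TPM, with a mean of 142 ± 15.5 TPM (SD, n = 3), which was 40.5 ± 1.64% of the family. FZD1, FZD2 and FZD7 had 109, 112 and 127 TPM, with a mean of 116 ± 9.54 TPM or 33.0 ± 0.463%. FZD3 and FZD6 had 70.2, 70.4 and 65.2 TPM, with a mean of 68.6 ± 2.91 TPM or 19.7 ± 2.09%. FZD4, FZD9 and FZD10 had 20.9, 25.1 and 25.5 TPM, with a mean of 23.8 ± 2.56 TPM or 6.80 ± 0.516%. By exon length the ranges of the subfamilies did not overlap. The order of the second and the third depended on that length. By coding length FZD3 and FZD6 had 134.6 ± 5.09 TPM (SD, n = 3), or 30.8% of the family, against 100.8 ± 9.48 TPM for FZD1, FZD2 and FZD7, and without division by length they had 205 ± 7.92 CPM against 132 ± 12.3 CPM (SD, n = 3). One gene led each of them, with 85.2% of its subfamily for FZD5, 75.2% for FZD7, 79.8% for FZD3 and 61.2% for FZD4. The 10 genes added up to 332, 342 and 377 TPM, with a mean of 350.4 ± 23.9 TPM (SD, n = 3), highest in replicate 3.

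The coding sequences of the canonical transcripts of GENCODE release 44 followed these subfamilies only in part. For each of the 10 members, the most similar coding sequence was that of a member of its own subfamily. For FZD4 the margin was small, at 65.7% to FZD9 against 65.5% to FZD1 of another subfamily. FZD4 was 65.7% and 65.5% identical to FZD9 and FZD10. Both were closer to FZD1, FZD2, FZD5, FZD7 and FZD8 than to FZD4, at 68.9% to 69.6% for FZD9 and 67.8% to 69.4% for FZD10. Within subfamilies 65.5% to 82.6% of aligned bases were identical over 8 pairs, with FZD2 and FZD7 the most alike. Between subfamilies the share was 55.7% to 73.2% over 37 pairs. The longest run of identical bases shared by 2 members was one of 81 bases in the coding sequences of FZD1 and FZD2, from coding base 1182 of FZD1 and 957 of FZD2. It is shown because a read that lay wholly within it would match both genes:
FZD1 and FZD2: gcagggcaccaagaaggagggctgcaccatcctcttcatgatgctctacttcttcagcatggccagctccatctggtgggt
Runs of at least 50 bases were shared by 4 pairs, which are FZD1 with FZD2, FZD2 with FZD7, FZD2 with FZD5 and FZD5 with FZD8. At most 32 windows of 50 bases of 1 member were found in another, so that little of any transcript is shared at that length. No source used here gives the read length behind the counts or the handling of reads with several matches.

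**Figure D2:**
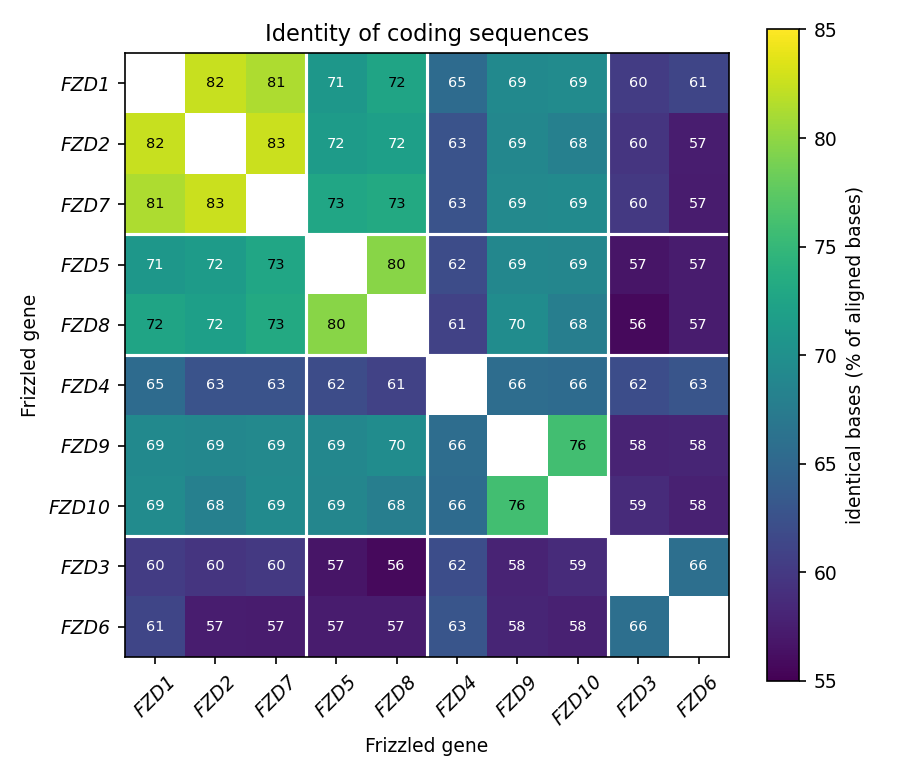
Percentage of identical bases among the aligned bases of the coding sequences of each pair of Frizzled genes, in color from 55% to 85%, with genes ordered by subfamily and white lines between subfamilies. FZD1, FZD2 and FZD7 form the most similar block, at 81.3% to 82.6%, and FZD3 and FZD6 differ most from the rest.

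A short motif in the cytoplasmic tail, close behind the last membrane-spanning helix, binds Dishevelled. Its pattern is lysine, threonine, 3 residues of any kind and tryptophan, and a search of the reading frames for codons of this pattern found exactly 1 match in each of the 10 members. The 18 bases of the motif, with 6 bases on either side, are shown for all members but FZD3 and FZD6, to let the receptors of high and low level be compared at the site where the signal enters the cell. Capitals mark bases that are identical in all 8 sequences:
FZD5: tcgggCAAgACggTggAgtCgTGGcggcgt
FZD8: tccggCAAgACgcTggAgtCcTGGcgctcc
FZD7: tcgggCAAgACccTgcAgtCgTGGcgccgc
FZD2: tcgggCAAgACgcTgcActCgTGGaggaag
FZD1: tccggCAAgACccTcaActCcTGGaggaag
FZD4: tctgcCAAaACtcTtcAcaCgTGGcagaag
FZD10: acctcCAAgACtcTgcAgtCcTGGcagcag
FZD9: agctcCAAgACttTccAgaCcTGGcagagc
Of the 18 bases of the motif, 10 are the same in all of these genes. Most of them were fixed by the search itself. They are the leading bases of the lysine and threonine codons and the whole tryptophan codon. In FZD7 the window is at chr2:202036295-202036324 on the plus strand and in FZD5 at chr2:207767144-207767173 on the minus strand (GRCh38), both in coding exons. From the window of FZD7, that of FZD5 differs at 5 of 30 bases and that of FZD9 at 13. The tail behind the motif differs in length. It has 51 coding bases in each of FZD1, FZD2 and FZD7, 99 in FZD4, between 150 and 165 in FZD10, FZD9 and FZD5 and 243 in FZD8. In FZD3 and FZD6 it is longest, with 477 and 609 bases.

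Members also differed in how much of the transcript is coding, and their order depended on the length by which reads were divided. Coding lengths lie between 1611 bp for FZD4 and 2133 bp for FZD6. The 3′ untranslated region (UTR) of the canonical transcript ranges from 340 bases in FZD9 to 11250 bases in FZD3, where it makes up 81.7% of the transcript. The median over protein-coding genes is 1034 bases. The coding sequence lies in 1 exon in 7 members, a structure found in 10.8% of protein-coding genes, and in several exons in FZD3, FZD4 and FZD6. When reads were divided by coding length in place of exon length, FZD3 moved from the third to the second place, with 129, 128 and 120 TPM against 71.9, 75.8 and 84.1 TPM for FZD7. FZD5 stayed first, at 150, 155 and 180 TPM, and its range did not overlap that of FZD3. FZD3 then had 28.8 ± 2.88% (SD, n = 3) of the family total in place of 15.7%, and FZD7 17.6 ± 0.363% in place of 24.8%. FZD4, with a 3′ UTR of 5466 bases, rose from the sixth to the fourth place by coding length, at a mean of 22.3 ± 2.77 TPM. FZD1, with 4505 bases, passed FZD10 in the means, at 5.52 ± 0.535 TPM against 5.37 ± 0.914 TPM, and their ranges overlapped. By canonical or longest transcript the order was that of exon length, except that FZD6 was above FZD4 in the means. How far reads cover the annotated 3′ UTRs cannot be seen from gene counts.

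**Figure D3:**
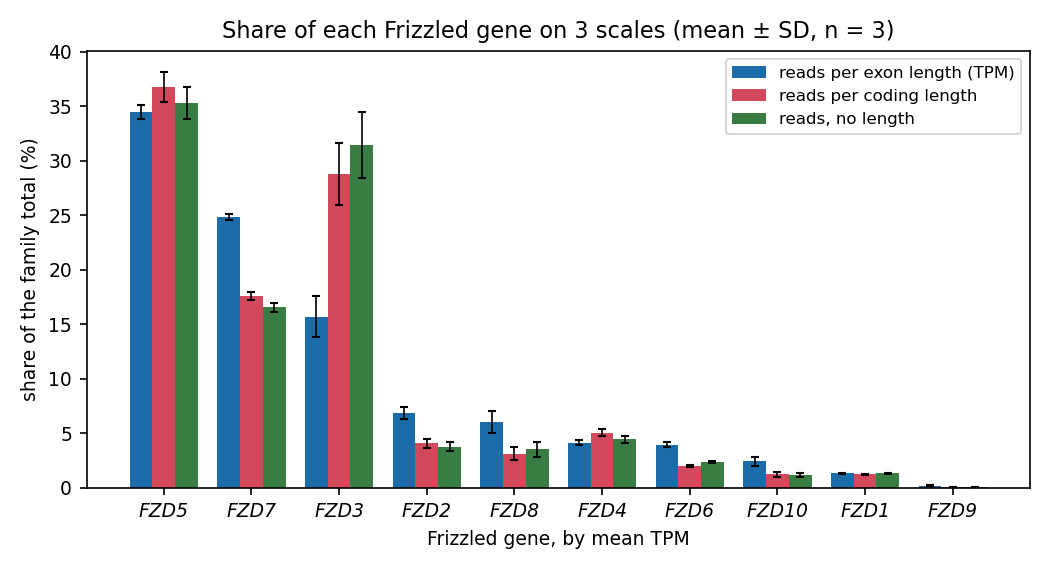
Share of each Frizzled gene in the family total, in percent, as the mean of 3 replicates with bars for the SD, by exon length (TPM), by coding length and without division by length. FZD3 has 15.7% by exon length, 28.8% by coding length and 31.4% of the reads, and FZD5 has the largest share on each of these 3 scales.

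The spread between replicates was compared with that of counting alone. The coefficient of variation of TPM was 2.97% for FZD6, 5.49% for FZD3, 6.74% for FZD7, 8.34% for FZD1 and 8.61% for FZD5. It was 11.2% for FZD4, 14.7% for FZD2, 16.8% for FZD10, 23.9% for FZD8 and 33.7% for FZD9. For FZD5 the SD of CPM was 4.65 times the SD that counting error alone would give, and for FZD8 it was 3.81 times. For FZD2, FZD3, FZD4, FZD7 and FZD10 it was 1.45 to 2.57 times. For FZD1, FZD6 and FZD9 it was below the counting SD, at 0.873, 0.434 and 0.678 times. This ratio depends on the number of reads as well as on the spread. FZD1, with 250 reads in all, and FZD5, with 6631, had nearly the same coefficient of variation but unlike ratios. The ratio did not follow reads alone, as FZD8, with 662 reads, had 3.81 and FZD3, with 5949, had 1.89. A ratio below 1 is no sign that a gene varied less.

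Replicate 3 was the farthest from the other libraries for FZD1, FZD2, FZD3, FZD5, FZD7 and FZD8, and replicate 1 for FZD6, FZD9 and FZD10, while for FZD4 replicates 1 and 3 lay about equally far on either side of replicate 2. On the log2 scale of CPM, it was above the mean of replicates 1 and 2 for 8 members, by 0.60 for FZD8, 0.38 for FZD2, 0.26 for FZD4, 0.24 for FZD5, 0.23 for FZD1, 0.19 for FZD7, 0.11 for FZD10 and 0.05 for FZD6. FZD3 was at -0.11 and FZD9, with few reads, at -0.34. The members with the lowest GC content of exons were FZD3, at 35.0%, and FZD6, at 38.8%, and FZD8, at 64.6%, was second to FZD9, at 68.5%. After a correction of each replicate for exon GC content in 20 bins of genes, the difference was nearer to 0 for 5 members, at 0.31 for FZD8, 0.33 for FZD2, 0.13 for FZD7, -0.02 for FZD10 and -0.07 for FZD3. It was farther from 0 for the other 5, at 0.26 for FZD5, 0.30 for FZD4, 0.27 for FZD1, 0.09 for FZD6 and -0.63 for FZD9, which has the highest GC content. The SD of FZD8 fell from 5.09 to 2.57 TPM, while that of FZD5 was 12.4 TPM after correction and 10.4 TPM before it. The share of mitochondrial reads was 0.554%, 0.665% and 0.832% in replicates 1, 2 and 3. The part of GC content and of this share in the differences was not tested.

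**Figure D4:**
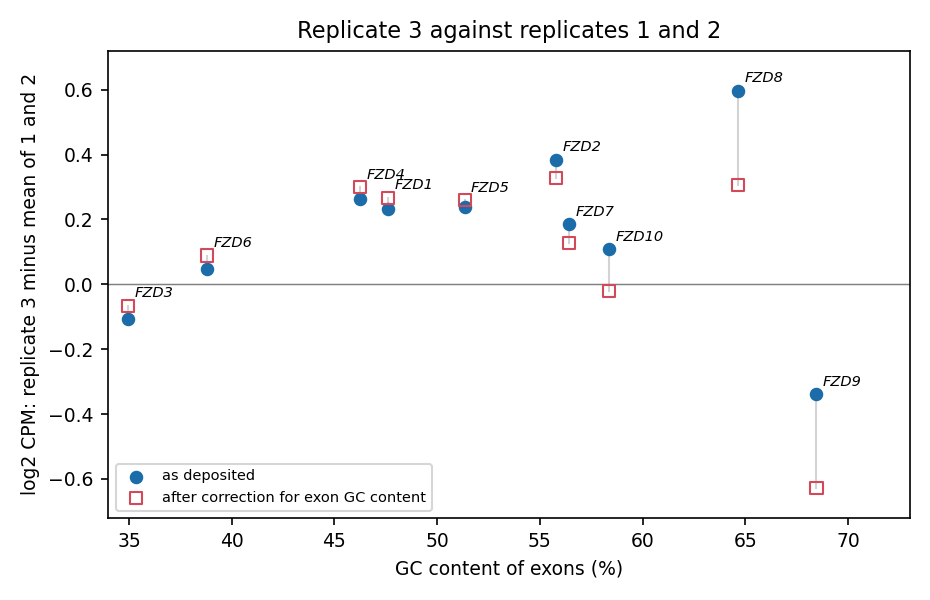
Difference of replicate 3 from the mean of replicates 1 and 2, on the log2 scale of CPM, against the GC content of exons in percent, for each Frizzled gene before (filled circles) and after (open squares) a correction for GC content, with a grey line joining both values of a gene. FZD8 moves from 0.60 to 0.31, and FZD9 rests on 6, 4 and 3 reads.

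Promoter sequences from RefSeq (GRCh38.p14) were at hand for 5 members, FZD1, FZD4, FZD5, FZD8 and FZD9. FZD2, FZD3, FZD6, FZD7 and FZD10 had no entry. The 250 bases before the start of the highest and of the lowest member are shown, with CpG dinucleotides in capitals. That of FZD5 is at chr2:207769907-207770156 on the minus strand and that of FZD9 at chr7:73433528-73433777 on the plus strand:
FZD5: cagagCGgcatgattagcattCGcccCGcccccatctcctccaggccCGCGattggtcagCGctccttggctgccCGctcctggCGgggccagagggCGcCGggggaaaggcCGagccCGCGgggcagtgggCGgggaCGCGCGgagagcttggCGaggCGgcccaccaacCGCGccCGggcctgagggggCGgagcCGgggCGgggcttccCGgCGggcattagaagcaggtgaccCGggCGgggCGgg
FZD9: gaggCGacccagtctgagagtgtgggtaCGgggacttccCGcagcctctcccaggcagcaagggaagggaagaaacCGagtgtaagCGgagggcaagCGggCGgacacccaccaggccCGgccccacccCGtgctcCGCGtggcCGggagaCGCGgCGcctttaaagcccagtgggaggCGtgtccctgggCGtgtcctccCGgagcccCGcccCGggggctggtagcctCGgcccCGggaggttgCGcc
The promoter of FZD5 has 30 CpG dinucleotides and a GC content of 76.8%, and that of FZD9 has 23 and 72.4%. Over 27305 genes the medians were 11 and 58.0%. The ratio of observed to expected CpG was at least 0.6 in all 5 members, from 0.705 for FZD9 to 0.904 for FZD8, and in 47.4% of all promoters. FZD5 and FZD9, the members of highest and lowest level, were both among these. FZD1, at 4.66 TPM, had the same GC content as FZD8, 65.2%. A link between promoter sequence and level was not tested.

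Other genes of the WNT pathway were counted by class to place the receptors among their partners. Of the 19 genes for WNT ligands, none was in the high class, 2 were in the medium class, 12 in the low class and 5 nonexpressed. Over all protein-coding genes each of the 3 classes holds 28.8%, and 13.6% are nonexpressed. The highest was WNT5A, which acts mostly without beta-catenin, at 23.7, 20.3 and 22.8 TPM and a mean of 22.3 ± 1.76 TPM (SD, n = 3). By exon length it overlapped the ranges of FZD2 and FZD8. Coding lengths are 1143 bp for WNT5A, 1695 bp for FZD2 and 2082 bp for FZD8. Per base of coding length, WNT5A had more reads than FZD2 and FZD8 in each replicate. WNT3, a ligand of the beta-catenin branch, had 7.98, 8.58 and 7.69 TPM. WNT1, WNT2, WNT6, WNT10A and WNT10B had no read in any replicate, and a count of 0 allows up to 3 counts in each. WNT3A had 1, 0 and 4 reads. Summed over all ligands the level by exon length was 39.8 ± 1.87 TPM (SD, n = 3), which is 0.114 times that of the Frizzled genes. The sum over ligands was not computed by coding length. PORCN, which adds the lipid to WNT proteins, had 4.85 ± 0.422 TPM (SD, n = 3), and WLS, which carries them to the surface, had 4.74 ± 0.516 TPM (SD, n = 3).

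Coreceptors spanned a wide range. Of 7 on the list, 5 were in the high class, which holds 28.8% of protein-coding genes. By exon length, the means of LRP6, ROR1 and PTK7 were above that of FZD3. Those of LRP5, RYK, ROR2 and MUSK were below it. LRP6 had 65.1, 66.2 and 60.0 TPM, above FZD3 and below FZD7 in each replicate. LRP5 had 35.9, 33.5 and 38.2 TPM, below FZD3. Coding lengths are 4839 bp for LRP6, 2816 bp for ROR1, 3642 bp for PTK7 and 1998 bp for FZD3. Per base of coding length, LRP6, ROR1 and PTK7 had fewer reads than FZD3 in each replicate. The receptor kinases ROR1, the highest of the list at 88.1 ± 5.44 TPM (SD, n = 3), and ROR2, at 21.4 ± 1.33 TPM (SD, n = 3), bind WNT5A. RYK had 37.3 ± 2.16 TPM (SD, n = 3) and PTK7, known for planar cell polarity, 83.4 ± 5.65 TPM (SD, n = 3). MUSK, the receptor kinase of the neuromuscular junction, had no read. Partners of FZD4 in Norrin signaling were uneven. The tetraspanin TSPAN12 had 27.7, 28.0 and 21.2 TPM, above FZD4 in every replicate, whereas the ligand gene NDP had 3, 5 and 1 reads.

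Regulators that act on the receptors were likewise uneven. ZNRF3 and RNF43 are ubiquitin ligases that remove Frizzled proteins from the surface. ZNRF3 had 19.5, 19.9 and 22.0 TPM, while RNF43 had 1.54 ± 0.295 TPM (SD, n = 3), with 73.8% of its exon length shared with other genes. LGR4, a receptor of R-spondins, which block both ligases, had 98.7, 107 and 127 TPM. By exon length it was below FZD5 in each library and above all other Frizzled genes. Coding lengths are 2854 bp for LGR4 and 1998 bp for FZD3. Per base of coding length, LGR4 had fewer reads than FZD3 in each library. The other 6 genes for R-spondins and LGR receptors were in the low class, with RSPO4 the highest of the R-spondins, at 2.69 ± 0.890 TPM (SD, n = 3). Among 19 antagonists, 2 were in the high class, 8 in the medium class, 8 in the low class and SOST was nonexpressed, so that the share of the high class was below the 28.8% of protein-coding genes. Those in the high class were SFRP2, at 765, 644 and 670 TPM, and SFRP1, at 327, 376 and 452 TPM, both secreted proteins that resemble the WNT-binding domain of Frizzled receptors. Each was above every Frizzled gene in every replicate. The genes SFRP1, SFRP2, FRZB, SFRP4 and SFRP5 together had 3.14 ± 0.168 times (SD, n = 3) the TPM of the 10 Frizzled genes, with FRZB at 17.8 ± 7.30 TPM (SD, n = 3), SFRP5 at 1.97 ± 0.645 TPM (SD, n = 3) and 1 read in all on SFRP4.

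Lists of genes that act inside the cell differed in their share of the high class, which holds 28.8% of protein-coding genes. All 3 Dishevelled genes were in it, with means of 41.9 ± 7.74 TPM for DVL1, 46.9 ± 0.786 TPM for DVL2 and 48.8 ± 1.40 TPM for DVL3 (SD, n = 3). Of 7 genes of the destruction complex 5 were in the high class, led by the kinase gene CSNK1A1 at 74.1 ± 2.38 TPM (SD, n = 3), of whose exon length 49.3% is shared with other genes. Among 5 catenin and TCF/LEF genes 3 were in the high class. CTNNB1, which encodes beta-catenin, had 288 ± 6.08 TPM (SD, n = 3). Of the TCF/LEF factors TCF7L1, mostly a repressor, had 173 ± 13.6 TPM (SD, n = 3). TCF7L2 had 56.0 ± 3.38 TPM, TCF7 7.49 ± 0.671 TPM and LEF1 2.60 ± 0.429 TPM (SD, n = 3). Of 12 target genes of the beta-catenin branch, 1 was in the high class, 4 in the medium class and 7 in the low class. CCND1, which many pathways control, led them at 464 ± 2.31 TPM (SD, n = 3). AXIN2, of whose exon length 25.3% is shared with other genes, had 22.8 ± 2.85 TPM (SD, n = 3), and SP5 and TBXT had 0.881 ± 0.409 and 1.75 ± 0.421 TPM (SD, n = 3). Of 12 genes of planar cell polarity, 3 were in the high class, a share near that of protein-coding genes, 6 in the medium class and 2 in the low class. VANGL2, a membrane protein of the branch in which FZD3 and FZD6 act, was highest at 131 ± 2.78 TPM (SD, n = 3), and PRICKLE4, of whose exon length 92.8% is shared, had no read.

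**Figure D5:**
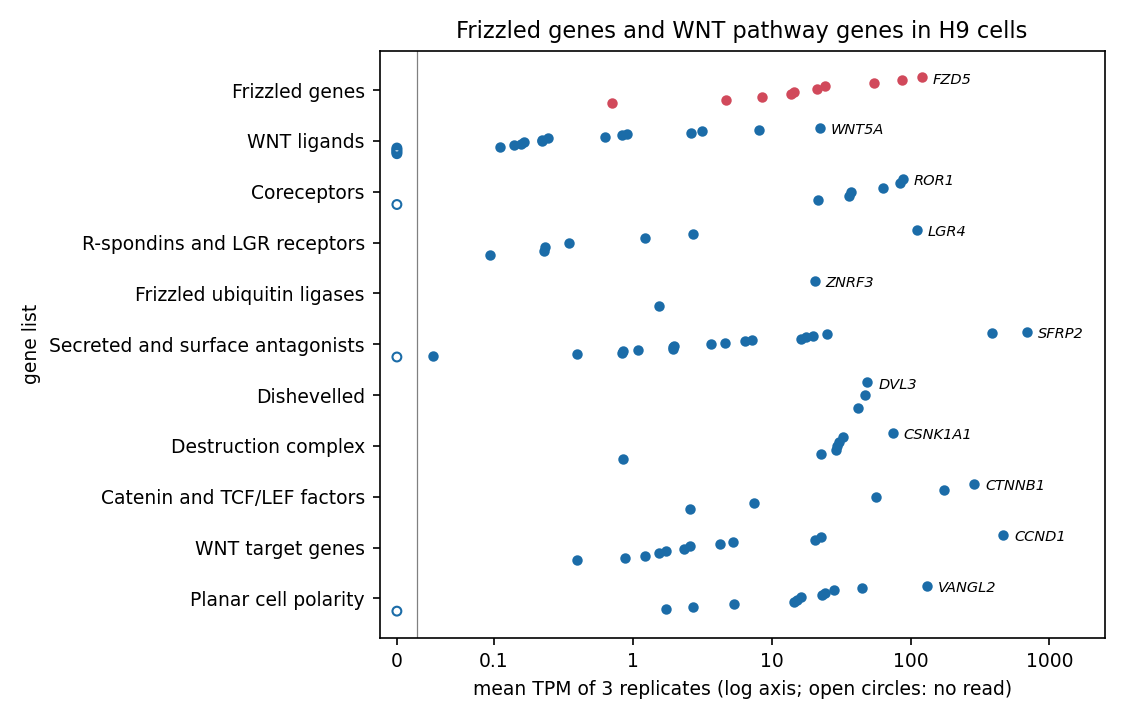
Mean TPM of 3 replicates on a log axis for the 10 Frizzled genes (red) and for genes of the WNT pathway by list (blue), with genes without a read as open circles left of the line and the highest gene of each list named. SFRP2, at 693 TPM, and SFRP1, at 385 TPM, are to the right of every Frizzled gene, and WNT5A, at 22.3 TPM, is the highest ligand.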

How the data were processed

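RNA of 3 replicates of H9 cells was sequenced without ribosomal RNA. Per the labels and the methods of the study, reads were trimmed with Trim Galore (0.4.4) and aligned to GRCh38 with TopHat2 (2.1.1), and the authors deposited whole-number read counts per gene without normalization. No source used here gives the counting tool, annotation or strand setting. The study's TPM, from Cufflinks (2.2.1), were not used here.

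Identifiers were matched to GENCODE release 44 (GRCh38), which gave 56948 genes. TPM were computed over these from the union of exons. Classes follow the thresholds of the study, and their restriction to protein-coding genes was chosen here. Coding sequences were aligned globally (Biopython 1.88, match 2, mismatch -1, gap opening -5, extension -0.5), and identity was taken over ungapped columns. edgeR (4.0.16) and DESeq2 (1.42.0) gave scaling factors for alternatives. R 4.3.3 and Python 3.11.15 were used, with matplotlib 3.10.9, pandas 2.3.3, scipy 1.17.1 and numpy 2.4.6. The steps were tested on simulated counts.

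Depths of 8655155 to 12024802 counts make a level of a few reads imprecise. No files held identical values, and all 3 were kept as the replicates that the labels name. Counts of each pair differed by more than sampling noise (chi-square of 1.81 to 4.17 per degree of freedom). Such a difference can also arise between libraries of the same culture, so it does not show that the cultures were separate. Members, pathway lists and markers were chosen with earlier results of these data known. All 10 members are named, and from each list its highest gene, receptors and regulators that act on Frizzled proteins, and genes without reads. AXIN2, LEF1, TCF7, TCF7L1, TCF7L2, SP5, TBXT, WLS and RSPO4 were named after their values were seen. No gene was sought for a pattern like that of a member, since there is 1 condition.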

Additional observations from a re-analysis of the deposited data

How the results depend on the processing

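No paired analysis was possible because all samples are of 1 condition. The number of members in the high class, 3, was the same under 16 of 17 alternatives. It was 7 when classes were set over every matched gene, with a boundary of 8.57 TPM in place of 27.0 TPM. The number at or above 1 TPM was 9 or 10 under all 14 alternatives. The summed Frizzled level of 350.4 TPM was 212 by canonical transcript, 265 by longest transcript and 439 by coding length, and 609 CPM without length. The share of FZD5, 34.5%, was 36.8% by coding length and 35.3% of the reads, and FZD5 led under every alternative run. Values without 1 replicate were 337 to 360 TPM and 34.1% to 34.7%. The number of the 45 pairs with ranges apart, 43, was 39 with counts thinned to 10% and 41 to 44 otherwise, and these counts need not be of the same pairs. The median of the replicates gives no range and was not run for pairs. By coding length all 10 members moved by more than their SD, 4 higher and 6 lower. By canonical transcript all 10 were lower by more than their SD, and by longest transcript 9 were, all but FZD9. Without division by length 7 moved by more than their SD, 5 higher and 2 lower. Rescaling by TMM or DESeq2 factors, a filter of 10 counts, the median and the correction for GC content moved none by that much. Leaving mitochondrial genes out raised FZD6 alone by more than its SD, and thinning to 10% moved FZD1 and FZD9. Few reads limit FZD9, whose mean was 1.19 TPM in the thinned counts. All values for thinned counts are medians over 11 random draws.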

Other observations

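Genes named after or adjoining Frizzled genes were also counted. FZD10-AS1, a long noncoding RNA gene on the strand opposite to FZD10, had 51, 50 and 35 reads over 11503 bp of exons, or 11.8 reads per kb against 67.6 for FZD10, with which it shares no exon. FZD4-DT, transcribed away from FZD4, had 1, 4 and 1 reads. SMO, which encodes Smoothened, the receptor component of Hedgehog signaling and a relative of the Frizzled family, had 99.1, 97.6 and 102 TPM. Its mean was 99.7 ± 2.48 TPM (SD, n = 3), and by exon length it was below FZD5 and above FZD7 in every replicate. Coding lengths are 2383 bp for SMO and 1722 bp for FZD7. Per base of coding length, SMO had fewer reads than FZD7 in every replicate.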
